A study of Mus musculus with 6 samples.

Results

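In mouse fibroblasts, the regions enriched for 5-hydroxymethylcytosine (5hmC) were set against those enriched for 5-methylcytosine (5mC). The members are all 42301 peaks of the fibroblast 5hmC list and all 104011 peaks of the fibroblast 5mC list, 146312 of the 663518 peaks in the 6 lists of the series. A peak was counted as having both marks where it overlapped a peak of the other list by at least 1 bp, and otherwise as 5hmC only or 5mC only. This rule uses positions, not scores or widths.

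The fibroblasts were derived from a mouse line generated out of induced pluripotent stem (iPS) cells, strain OG2-GFP/Rosa26-M2rtTA, and were collected at passage 4. OG2-GFP is a fluorescent reporter of Oct4, and M2rtTA is an activator that switches on transgenes when doxycycline is present. The cells are named TSKM after the inducible factors Tet1, Sox2, Klf4 and c-Myc, and the labels name doxycycline only for the samples taken after 3 days of induction. The same strain was profiled on day 3 of doxycycline and as an iPS cell line at passage 10 to 15. Each stage and mark had 1 library, so no value below has a replicate error and no test between the marks was possible. 5hmC was captured with a polyclonal antibody and 5mC with a monoclonal one, each in its own library, so that a difference between the marks cannot be told apart from one between antibodies or libraries. Read depth is unknown, sex and the number of animals stand nowhere in the sources used here, and peak lists offer no marker levels with which to check the cell type.

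5mC is the methyl mark that DNA methyltransferases place on cytosine, mostly in CpG pairs, and it is copied when DNA replicates. Tet enzymes, of which Tet1 is one, oxidise 5mC to 5hmC, which is an intermediate of demethylation and also a lasting mark in some cells. 5hmC is known to be scarce in dividing fibroblasts and plentiful in brain and in pluripotent cells. An antibody captures sheared DNA fragments, so a peak spans many CpG pairs and can hold both marks on different cytosines, different molecules or in different cells.

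Most peaks overlapped no peak of the other list. A region below the score threshold counts as unmarked, so peaks of a single-mark class need not lack the other mark. Of the 5hmC peaks, 11486 overlapped a 5mC peak, which is 27.2% of the list (95% Wilson interval 26.7 to 27.6), and 30815 were 5hmC only. On the 5mC side, 11591 peaks overlapped a 5hmC peak, 11.1% of the list (10.95 to 11.3), and 92420 were 5mC only. The intervals cover counting error only, and neighbouring peaks are not independent. In base pairs, the 5hmC list covered 35.9 Mb and the 5mC list 111 Mb, and 8.34 Mb lay in both. These shared base pairs made up 23.2% of the 5hmC length and 7.53% of the 5mC length. The 5mC-only class was thus the largest of the 4. Both shares moved with the peaks admitted. When the 5mC list was cut to its 42301 best-scoring peaks, which ended at a score of 105.03, and the 5hmC list was left whole, 13.25% of the 5hmC peaks had both marks. From the 5mC side the share was then 13.1%. This setting changes the length of the 5mC list and its lowest score together. With a score of at least 100 in both lists the shares were 18.4% and 7.04%.

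Where the marks met, they mostly met as single peaks lying on top of each other. Of the 5hmC peaks with both marks, 11180 touched exactly 1 5mC peak, 300 touched 2, and 6 touched 3 or more. The median 5hmC peak in this class had 86.9% of its length covered by 5mC (quartiles 67.3 and 100%), and 3173 peaks were covered from end to end. For 85.2% of them the peak centre lay inside a 5mC peak. Viewed from 5mC the match was looser, with a median of 71.4% of the length covered (45.9 and 91.04%), 1535 peaks covered whole and 75.2% of the centres inside a 5hmC peak. Among the 11798 overlapping pairs, 60.1% were staggered, in 26.9% the 5hmC peak lay within the 5mC peak, in 13.0% the 5mC peak lay within the 5hmC peak, and 5 pairs had the same start and end. In the 10822 pairs in which each peak had a single partner, the centres were a median of 162.5 bp apart (68.5 and 404 bp). The 5mC peak was the wider partner in 65.4% of these pairs.

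The scores of the partners of a pair were barely related. Across the 10822 pairs with a single partner each, Spearman's rho was 0.03 between the scores of the partners and 0.12 between their widths. Each peak's score comes from the authors' peak caller. MACS of this version usually writes a significance here (10 times the negative log10 of a p-value), although the files do not state it, so the score was not taken as a strength of enrichment. It depends on depth and goes with peak width. These pairs are points from 2 libraries and not independent replicates, so the coefficients are a description.

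Few peaks stood at the edge of the 1 bp rule. Overlaps of at most 50 bp made up 214 of the 5hmC peaks with both marks, with medians of 806.5 bp in width and 82.2 in score. Another 232 of the 5hmC-only peaks lay within 50 bp of a 5mC peak, with medians of 818 bp and 79.97. For 5mC these numbers were 264 peaks just inside, with medians of 928 bp and 87.3, and 299 just outside, with 937 bp and 92.6. Peaks on either side of the boundary were thus alike in size and score.

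5hmC peaks with both marks were wider than 5hmC-only peaks. Their median width was 875 bp (quartiles 747 and 1022), against 794 bp (675 and 917). For 5mC the medians were 983 bp (836 and 1295) with both marks and 932 bp (807 and 1142) without 5hmC. A wide peak offers more base pairs that can touch another, so part of such a difference follows from the rule. Asked by the centre of the peak instead, the median difference remained 74 bp for 5hmC but was 14 bp for 5mC. With at least 50% of the peak covered it was 74 bp and 1 bp. The width difference of 5mC peaks therefore depended on the overlap rule, and that of 5hmC peaks kept most of its size.

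Scores separated the 5hmC classes in the same way. The median score was 104.7 for 5hmC peaks with both marks (quartiles 68.3 and 201.0) and 81.1 for 5hmC-only peaks (61.5 and 127.1). Among 5mC peaks it was 101.1 (68.7 and 169.1) with both marks and 89.3 (64.8 and 141.8) without. By the centre rule the median differences in score were 24.8 for 5hmC and 4.36 for 5mC, and with at least 50% covered they were 24.4 and 0.365.

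**Figure D1:**
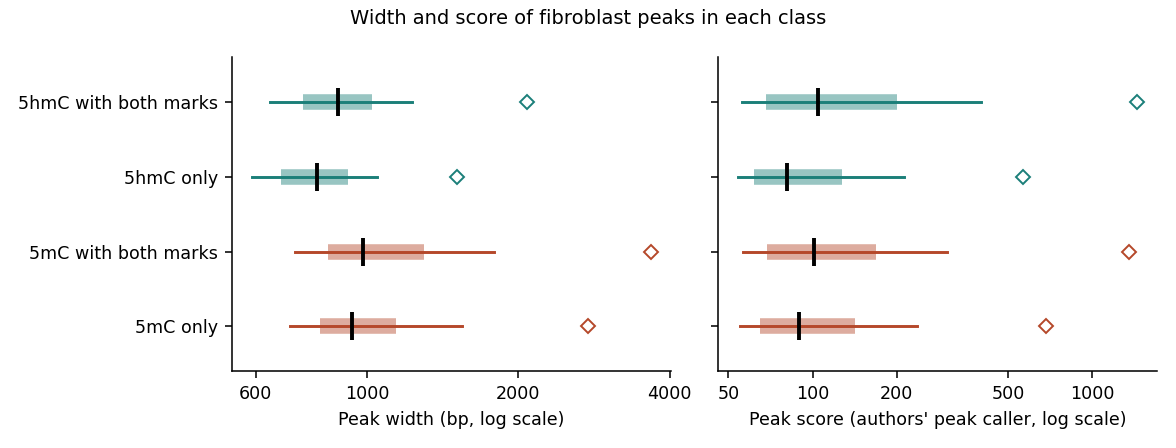
Width in bp (left) and score (right) of the peaks in each fibroblast class, on log scales; the black tick is the median, the thick bar spans the quartiles, the thin line the 10th to 90th percentile, and the diamond is the 99th percentile. The both-mark classes lie to the right of the single-mark classes, with 5hmC medians of 875 against 794 bp and scores of 104.7 against 81.1.

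Width and score move together within a peak list, so the scores were also compared within quintiles of width. In the narrowest quintile of 5hmC peaks (median 600 bp) the median score was 62.5 in both classes. In the middle quintile (815 bp) it was 81.4 with both marks and 77.6 without, and in the widest quintile (1097 bp) it was 228 and 179. The score difference of 5hmC peaks thus lay mainly among the wide peaks. In the 5mC list the difference was between -0.79 and 0.97 in the 4 narrower quintiles, and 14.3 in the widest, where the medians were 226.5 and 212. Widths in the widest quintile ran from 978 to 29171 bp for 5hmC and from 1259 to 25436 bp for 5mC. Width was therefore not held constant there, where the score differences were largest.

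The share of 5hmC peaks on 5mC was higher the further up the score ranking they stood. It was 20.1% in decile 1 (median score 52.1), 23.1% in decile 5, 35.4% in decile 9 and 49.4% in decile 10 (median score 380), against 27.2% over the list. By centre inside a 5mC peak it went from 16.8% to 44.7%. By width it went from 16.2% in the narrowest decile to 47.4% in the widest. Along the 5mC ranking the same share moved far less, from 8.97% in the lowest decile by score to 15.7% in the highest. By the centre rule it was 7.55% and 8.78%, with values between 7.80 and 9.14% in the deciles between them. The best-scoring and the widest 5hmC peaks were therefore those most often listed for 5mC, and the share of 5mC centres inside 5hmC differed little along the 5mC score.

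**Figure D2:**
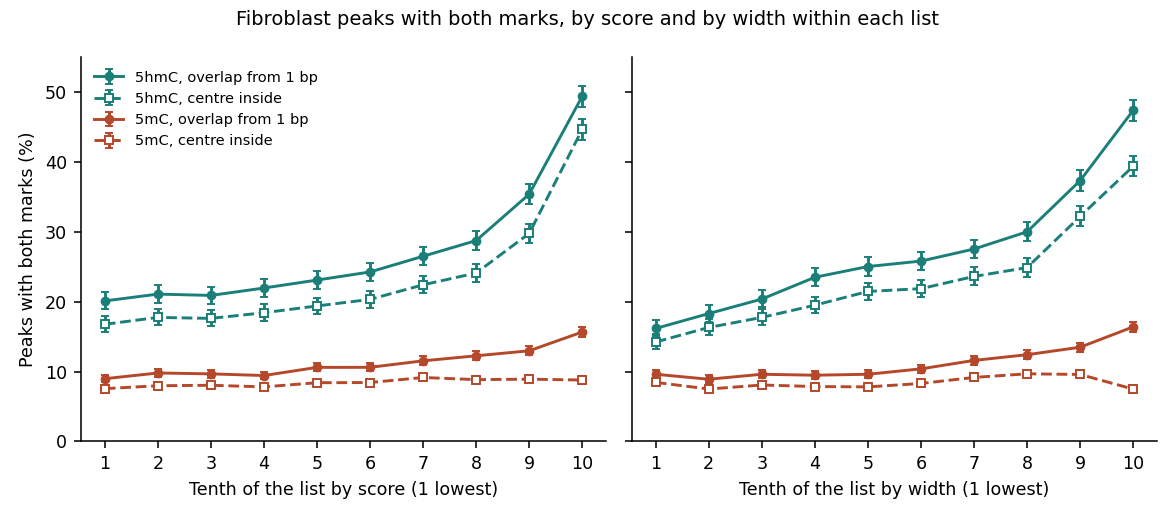
Share of fibroblast peaks with both marks (percent, 95% Wilson intervals as bars) in each decile of the 5hmC and 5mC lists, ranked by score on the left and by width on the right; filled points count any overlap, open squares a centre inside the other mark. The 5hmC share climbs to 49.4% in the best-scoring decile, while the 5mC share by centre stays between 7.55 and 9.14% along the score.

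Among the few peaks with a score of 3100 or more, nearly all had both marks, and below that score the lists differed. Of the 46 5hmC peaks past this score, 45 overlapped 5mC, and of the 47 such 5mC peaks 42 overlapped 5hmC. Of 254 5hmC peaks with a score of at least 1000, 215 had both marks, or 84.6% (79.7 to 88.6). Of 509 5mC peaks with a score of at least 1000, 163 had both, or 32.0% (28.1 to 36.2). The same score need not mean the same in both lists, since their depths are unknown. Of 53 5hmC peaks of at least 3000 bp, 46 had both marks, and of 842 such 5mC peaks 219 did. Over the whole lists the shares with both marks were 27.2% and 11.1%. A score of exactly 3100 recurred in both lists, in 42 and 45 peaks, a value whose meaning the files do not state. No control library is given in the sources used here. Whether the top-scoring regions would be listed without enrichment of either mark was therefore not tested.

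The best-scoring 5hmC peaks with both marks lay in a long stretch covered by both marks or were compact. The first lay on chromosome 1 from 90151099 to 90166878 (score 3227.04), was covered by a single 5mC peak over all of its 15780 bp, and lay 44 bp from another 5hmC peak. That neighbour, from 90121884 to 90151054, was the widest 5hmC peak, at 29171 bp with 29014 bp covered by 5mC. The second by score was on chromosome 3 from 156095907 to 156098182 (3222.65), with 1430 of 2276 bp covered. The third was on chromosome 5 from 77640326 to 77642821 (3177.36), with 2322 of 2496 bp covered. All 4 had an overlapping peak in both later 5hmC lists and in the 5mC list of day 3, and the peak on chromosome 3 had none in the iPS 5mC list. Coordinates are on mm9, counted from 1, and no gene annotation of that build was used here.

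5hmC-only peaks reached high scores in few places. The best was on chromosome 4 from 129879110 to 129886647 (score 3100.00, 7538 bp), which was also the widest of its class, and a 5mC peak lay 666 bp away. The next was on chromosome 2 from 89224933 to 89230237 (2794.44, 5305 bp), with the nearest 5mC peak 454 kb away. It overlapped 5hmC peaks at day 3 and in iPS cells and no 5mC peak in either. The third was on chromosome 13 from 57139956 to 57141957 (2376.19, 2002 bp), 2.72 kb from 5mC. Of the 3, the region on chromosome 2 alone lacked 5mC in all 3 5mC lists.

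The best-scoring 5mC peaks fell into both classes, with peaks of equal score ordered by width. With both marks, the best was on chromosome 11 from 3000925 to 3005155 (3113.16), with 3721 of 4231 bp under 4 5hmC peaks. The next, on chromosome 11 from 3075043 to 3100478 (3100.00), was the widest 5mC peak at 25436 bp and was covered by 5hmC over 25372 bp. The third was on chromosome 3 from 25428285 to 25452588 (3100.00), with 24088 of 24304 bp covered. The best 5mC-only peak, on chromosome 4 from 132616569 to 132622689 (3128.53), lay 3.71 kb from 5hmC. The others of this class were on chromosome 15 from 76002217 to 76014734 (3100.00), the widest of the class at 12518 bp, and on chromosome 4 from 141027171 to 141033913 (3100.00), with 5hmC 2.61 kb and 47.5 kb away. Each of these 3 5mC-only peaks overlapped peaks of all 4 later lists, 5hmC included.

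Around the centres of 5hmC peaks, 5mC was concentrated within about 1 kb. 5mC peaks covered 23.1% of all 5hmC centres, 14.0% of the positions 0.5 kb away, 9.44% at 1 kb and 9.23% at 5 kb, and still 8.35% at 100 kb. The reverse profile had the same shape at a lower level, with 8.38% of 5mC centres inside a 5hmC peak, 2.88% of positions at 1 kb, 3.005% at 5 kb and 2.73% at 100 kb. The surroundings differed between the classes. Near 5hmC peaks with both marks, 14.45% of the positions 5 kb away and 11.3% of those 100 kb away were inside a 5mC peak. Near 5hmC-only peaks these values were 7.29% and 7.24%. Around all 5mC peaks, other positions were inside a 5mC peak at similar levels, 14.1% at 5 kb and 10.4% at 100 kb. The both-mark class was chosen for lying on 5mC, so its 5mC-rich surroundings cannot be told apart from the clustering of 5mC itself. For 5mC peaks, 5hmC covered 4.37% of the positions 5 kb from those with both marks and 2.83% from 5mC-only peaks. At 100 kb these values were 3.07% and 2.69%.

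**Figure D3:**
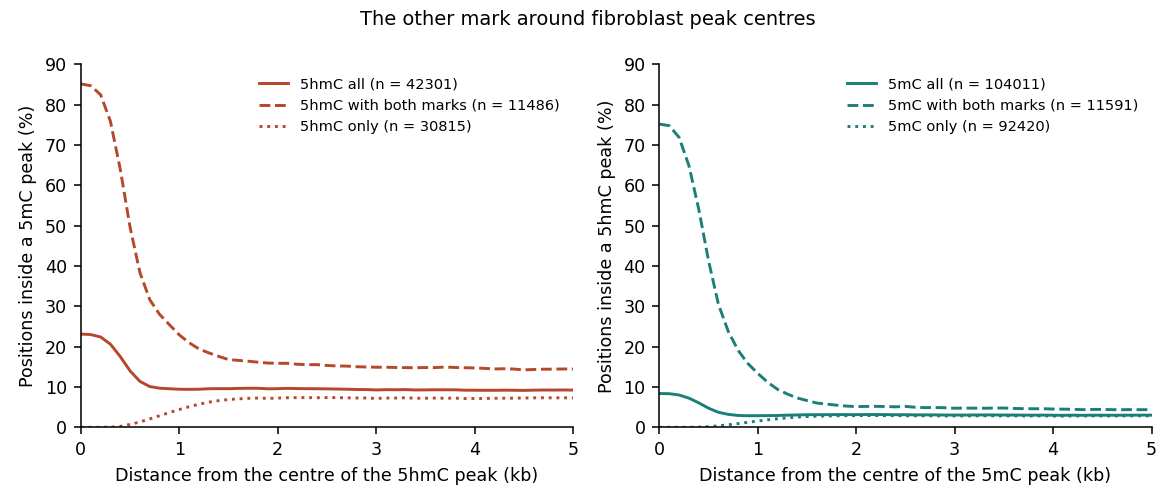
Percent of positions inside a 5mC peak by distance in kb from the centre of fibroblast 5hmC peaks (left), and inside a 5hmC peak by distance from 5mC centres (right), for all peaks and for each class. The curve over all 5hmC peaks falls from 23.1% at the centre to 9.44% at 1 kb, and the both-mark curve stays above the 5hmC-only curve out to 5 kb.

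Peaks with a single mark were not all far from the other mark. 5hmC-only peaks lay a median of 6.43 kb from the nearest 5mC peak (quartiles 2.09 and 21.02 kb). Within 1 kb of 5mC were 13.9% of them and within 10 kb 60.3%, while 2571 (8.34%) had no 5mC within 100 kb and 94 none within 1000 kb. For 5mC-only peaks the median gap to 5hmC was 11.85 kb (4.50 and 26.6 kb), 6.52% were within 1 kb, and 2174 (2.35%) had none within 100 kb. The 5hmC-only class thus held both the peaks closer to the other mark and the more isolated ones, although the 5mC list from which its gaps were measured is the longer one.

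The marks differed in how their peaks clustered. In the 5mC list 67.7% of the peaks (67.4 to 68.0) had a neighbour of the same list within 5 kb, edge to edge, with a median gap of 2.46 kb. In the 5hmC list the share was 30.0% (29.6 to 30.4) and the median gap 11.2 kb. A longer list has closer neighbours, so the share was also taken in lists of equal length: with 42301 peaks each, it was 51.4% for 5mC and 30.0% for 5hmC. Linking peaks up to 5 kb apart gave 35067 5hmC groups, of which 29613 were single peaks and 120 had 5 or more. The same linking gave 54153 5mC groups, of which 33575 were single and 3733 had 5 or more. Groups of 5 or more held 1.695% of the 5hmC peaks and 27.0% of the 5mC peaks.

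5hmC peaks with both marks were more clustered than 5hmC-only peaks, and for 5mC the order of the classes depended on the overlap rule. Among 5hmC peaks with both marks 37.5% (36.6 to 38.35) had a neighbour within 5 kb, against 27.2% (26.7 to 27.7) of 5hmC-only peaks, with median gaps of 8.11 and 12.7 kb. Of single 5hmC peaks 24.3% had both marks, of those in groups of 2 to 4 32.9%, and of the 717 in groups of 5 or more 50.9%. Among 5mC peaks 68.3% (67.4 to 69.1) of those with both marks and 67.65% (67.35 to 67.95) of 5mC-only peaks had a neighbour within 5 kb. The share of 5mC peaks with both marks was 10.95% among single peaks and 11.3% in groups of 5 or more, close to the 11.1% of the list. With at least 50% of the peak covered, 64.3% of 5mC peaks with both marks and 68.0% of the others had a neighbour within 5 kb, and by centre 65.05% and 67.96%. With gaps of up to 1000 bp counted as shared, the shares were 71.7% and 66.9%, and with peaks within 1000 bp joined 59.5% and 56.6%.

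**Figure D4:**
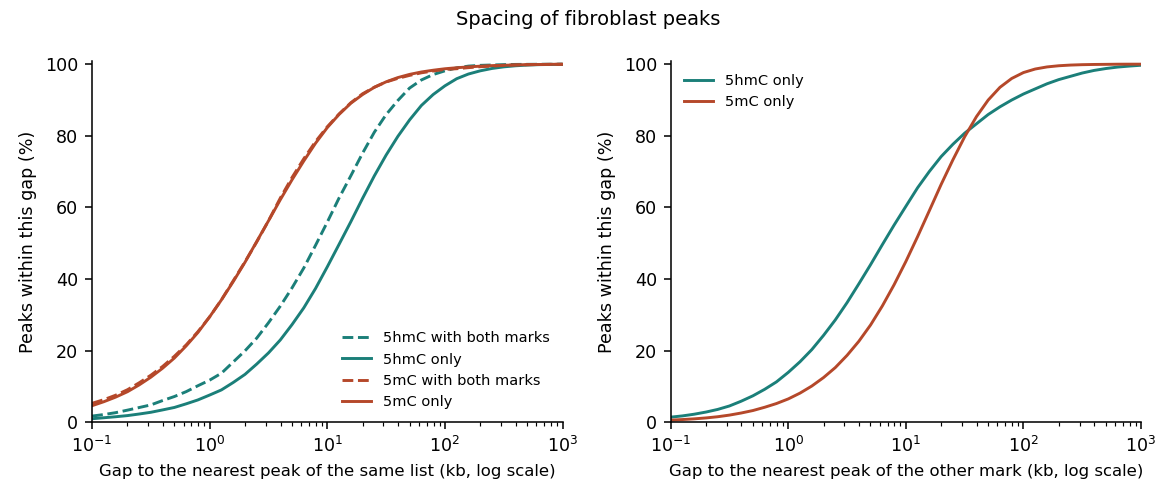
Cumulative percent of fibroblast peaks by the gap in kb (log scale) to the nearest peak of the same list, for 4 classes (left), and to the nearest peak of the other mark, for the single-mark classes (right). Both 5mC classes run together on the left, with medians near 2.46 kb, while the 5hmC classes separate at 8.11 and 12.7 kb.

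In single places, the largest 5hmC groups mostly had both marks, and the largest 5mC groups mostly did not. The 5hmC group with the most peaks, 14, was on chromosome 9 from 3015104 to 3038585, and all 14 overlapped 5mC. Next came 13 peaks on chromosome 1 from 90107916 to 90206960, which covered 93.1 kb of 99.05 kb and all had both marks, and 13 on chromosome Y from 2473379 to 2496250, 10 of them with both. The largest 5mC group held 51 peaks on chromosome 8 from 111310075 to 111462699, where 2 of the 51 had both marks. The following 2 were on chromosome 5, with 46 peaks from 116296873 to 116421695 and 43 from 125497669 to 125620166, of which 6 and 7 had both. The 6 groups named here were chosen after the values were seen. Over all groups of 10 or more, 84.9% of the 73 5hmC peaks and 11.2% of the 8890 5mC peaks had both marks. These 5hmC peaks lay in only 6 groups, and the 5mC peaks in 645. The 5hmC groups named above are among those counted, so the 5hmC share is no separate check on them. Over the whole lists the shares were 27.2% and 11.1%, so the large 5mC groups were near the share of their list.

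The marks were also counted over windows of 100 kb, which are far longer than a peak and so hold both marks more readily than peaks overlap. Of 25787 windows, 12967 (50.3%) held base pairs of both marks, 3093 held 5hmC only, 3041 held 5mC only, and 6686 held neither. Windows with both held a median of 1.93 kb of 5hmC and 5.58 kb of 5mC, and in 17.05% of them 5hmC covered more than 5mC. The share of windows with any 5hmC was higher the more 5mC peaks a window had, from 31.6% with none to 63.2% with 1 to 2, 90.6% with 6 to 10 and 97.3% with 21 to 38. Mean 5hmC peaks per window went from 0.455 to 4.78 over the same range. Spearman's rho between the covered lengths was 0.66 over all windows and 0.45 over those with both marks. All windows come from the same 2 libraries and share their depth, and rho is given as a description. Whether CpG content moves with this relation was not tested, because no sequence of this build was used.

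The windows with the most 5hmC were also rich in 5mC. On chromosome 1 from 90100001 to 90200000, 5hmC covered 86.2 kb and 5mC 88.8 kb, and between 3000001 and 3100000 on chromosome 11 the lengths were 76.1 and 76.2 kb. These 2 windows had the largest covered length of both marks. At the later stages, day-3 5hmC, day-3 5mC, iPS 5hmC and iPS 5mC covered 53, 78.8, 50.45 and 82.3 kb of the window on chromosome 1. On chromosome 11 these lengths were 71.9, 77.9, 67.5 and 75.4 kb. Their coverage was thus not particular to fibroblasts or to 1 mark. The third for 5hmC, on chromosome 3 from 25400001 to 25500000, had 40.7 kb of 5hmC and 39.5 kb of 5mC. The third for 5mC, on chromosome 5 from 116300001 to 116400000, had 65.4 kb of 5mC and 6.10 kb of 5hmC. It was also the window with the largest excess of 5mC, followed by chromosome 12 from 111800001 to 111900000, with 51.7 against 0.645 kb, and chromosome 5 from 116000001 to 116100000, with 52.5 against 1.61 kb. Excess in the other direction was much smaller. It reached 9.76 kb on chromosome 15 from 19600001 to 19700000, where no 5mC was listed in fibroblasts, at day 3 or in iPS cells. Next came chromosome 7 between 152300001 and 152400000, where 5hmC covered 12.01 kb and 5mC 3.41 kb, and chromosome 3 between 43700001 and 43800000, where 5hmC covered 8.10 kb and 5mC nothing. By this measure windows dominated by 5mC differed by up to -59.3 kb (5hmC minus 5mC) and those dominated by 5hmC by up to 9.76 kb.

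Chromosomes with many peaks of 1 mark had many of the other. On the 19 autosomes 5hmC density ran from 13.5 peaks per Mb on chromosome 3 to 22.0 on chromosome 5, and 5mC density from 30.3 on chromosome 3 to 60.7 on chromosome 11. Spearman's rho between the densities was 0.91 over the 19 autosomes, as a description of chromosomes that share their libraries. The number of 5mC peaks per 5hmC peak ranged from 2.18 on chromosome 1 to 3.02 on chromosome 19. The share of 5hmC peaks with both marks was lowest on chromosome 3, at 20.8% (19.2 to 22.6), and highest on chromosome 17, at 32.6% (30.5 to 34.8). The share of 5mC peaks with both ranged from 8.88% on chromosome 19 to 14.2% on chromosome 7. These shares went with the density of the other mark. Over the 19 autosomes, rho was 0.81 between the 5hmC share and 5mC density, and 0.58 between the 5mC share and 5hmC density.

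Chromosome X stood apart from the autosomes in the number of peaks, and for 5mC also in the share with both marks. It held 297 5hmC and 243 5mC peaks, 1.84 and 1.51 per Mb, so that the excess of 5mC over 5hmC seen on each autosome was missing there. Of these, 87 5hmC peaks and 89 5mC peaks had both marks, or 29.3% (24.4 to 34.7) and 36.6% (30.8 to 42.8). Relative to the autosomal density, 5hmC-only peaks on X were at 0.103 times and both-mark 5hmC peaks at 0.115 times. 5mC-only peaks were at 0.02497 times and both-mark 5mC peaks at 0.116 times. 5mC-only peaks were thus the class most depleted on X. Of the 100 kb windows of X, 83.8% held neither mark. Of the X peaks, 53 5hmC and 47 5mC peaks fell into 5 windows of 100 kb, so the peaks were not spread evenly.

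Chromosome Y, spanned by the lists over 2.86 Mb, held 70 5hmC and 52 5mC peaks, of which 49 and 46 had both marks. Both-mark 5hmC peaks were at 3.64 times the autosomal density there, and 5mC-only peaks at 0.0548 times. Of the Y peaks, 43 5hmC and 29 5mC peaks fell into 5 windows of 100 kb. The mitochondrial genome had 3 5hmC and 2 5mC peaks, all with both marks.

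**Figure D5:**
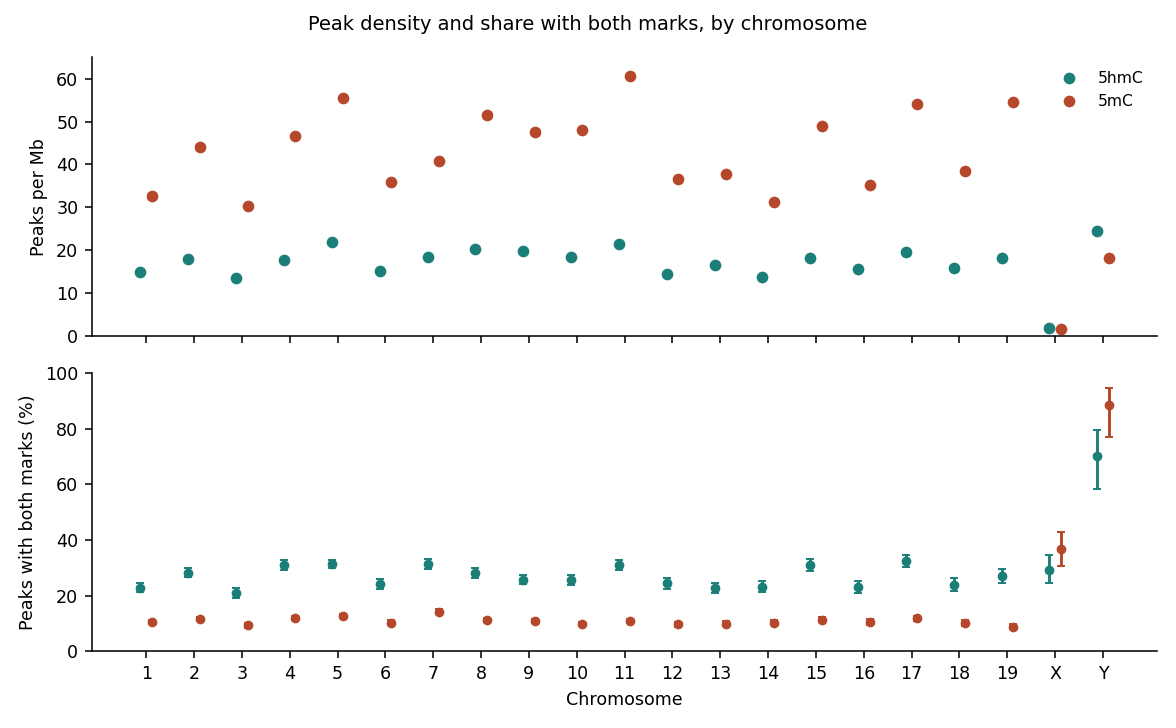
Fibroblast peaks per Mb (top) and percent with both marks with 95% Wilson intervals (bottom) on each chromosome, for 5hmC and 5mC; the mitochondrial genome is left out. Each autosome has more 5mC than 5hmC peaks, X has 1.51 and 1.84 per Mb, and on Y 49 of 70 5hmC peaks have both marks.

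Both marks were denser at the ends of the autosomes farther from the centromere. In the last 5 Mb that the lists cover, there were 28.5 5hmC and 64.8 5mC peaks per Mb, against 17.0 and 42.6 away from the ends. Shares with both marks were 31.1% (29.4 to 32.9) of 5hmC and 13.9% (13.1 to 14.8) of 5mC peaks there, and 26.8% and 10.8% away from the ends. In the first 5 Mb, on the side of the centromere, densities were 14.5 and 29.4 per Mb, with 26.7% of 5hmC and 13.1% of 5mC peaks having both.

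The classes were then looked up in the lists of the later stages, which the class rule did not use. Centres of fibroblast 5hmC peaks with both marks were inside a 5hmC peak in 51.95% of cases at day 3 (51.04 to 52.9) and in 80.6% in iPS cells (79.9 to 81.3). For 5hmC-only peaks these shares were 26.3% (25.8 to 26.8) and 54.3% (53.7 to 54.8). The day-3 and iPS 5hmC lists covered 127.3 and 186.6 Mb, and the share that coverage alone would give was not computed. Peaks with both marks recurred as 5hmC more often than 5hmC-only peaks at each stage. They also scored higher, and a high score goes with recurrence, so the shares were taken within quintiles of the fibroblast score. For iPS 5hmC the gap was 34.8 percentage points in the lowest quintile (66.9 against 32.1%) and 4.09 in the highest (93.9 against 89.8%). For day-3 5hmC it was between 19.8 and 23.9 percentage points in each quintile. Peak width and the density of surrounding peaks were not held constant.

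5hmC-only peaks were listed for 5mC later less often than 5hmC peaks with both marks, a class chosen for its fibroblast 5mC. The day-3 and iPS 5mC lists covered 170 and 59.7 Mb, and the share that coverage alone would give was not computed. At day 3, 20.4% of their centres (19.9 to 20.8) were in a 5mC peak, and in iPS cells 12.4% (12.03 to 12.8), against 80.2% and 49.8% of 5hmC peaks with both marks. In iPS cells 5hmC alone was found at 44.99% of the 5hmC-only centres, both marks at 9.28%, 5mC alone at 3.11% and neither at 42.6%. At day 3, 62.8% had neither mark. Of the both-mark 5hmC centres, 42.6% had both again in iPS cells, 38.0% had 5hmC alone, 7.16% had 5mC alone and 12.2% lacked both.

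A 5mC peak with 5hmC on it in fibroblasts was more often a 5hmC site later, and in the day-3 5mC list the order of the classes was not stable. Centres of both-mark 5mC peaks were in day-3 5hmC in 48.2% (47.3 to 49.1) and in iPS 5hmC in 78.9% (78.2 to 79.6). For 5mC-only peaks the shares were 22.4% (22.1 to 22.7) and 61.5% (61.1 to 61.8). Within quintiles of the fibroblast 5mC score, the gap for day-3 5hmC was between 22.2 and 27.8 percentage points, and for iPS 5hmC it went from 26.6 in the lowest to 3.57 in the highest. In the day-3 5mC list the shares were 89.4% and 88.5%. Within quintiles of the score the difference was 1.75 percentage points in the lowest and between -1.895 and -0.362 in the other 4, and it was -1.52 when each list was limited to scores from 100. In the iPS 5mC list 51.7% (50.8 to 52.6) of both-mark and 34.6% (34.3 to 34.95) of 5mC-only centres were inside a peak. The later lists differ in length, so shares in different lists are not compared with each other.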

How the data were processed

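DNA of each sample was sonicated, ligated to adapters and immunoprecipitated from 500 ng, then amplified for 14 to 16 cycles and size-selected at 300 to 500 bp, per the labels' protocols. MACS 1.4.1, Bowtie 0.12.7 and CASAVA 1.8 are listed in the submitters' processing notes, with build mm9. Control library, settings, duplicate handling and read numbers were not given in the sources used here. Each deposited peak score was set by the authors' caller and was at least 50.00 or 50.01 in each list. It depends on depth. Peaks were ranked within a list, the same score thresholds were applied to both lists as a description, and partners' scores were compared by rank. No list held overlapping peaks.

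Groups came from the sample titles. Overlaps, gaps and windows were computed in Python 3.11.15 (numpy 2.4.6, pandas 2.3.3, scipy 1.17.1, matplotlib 3.10.9), tested on simulated data (38000 peaks, 0 wrong), and gave the same counts of overlapping peaks as bedtools 2.31.1. Densities use the span from the first to the last position in any of the 6 lists. Intervals are 95% Wilson. With 1 library per group no test was run. Members, classes and settings were chosen with earlier results of these data known. Named were, by rule, the 3 best-scoring and the widest peaks of each class, the 3 windows with most of each mark and the 3 with the largest difference each way. The gene and sequence tables at hand are on another build, so no genes were assigned and feature classes were left out.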

Additional observations from a re-analysis of the deposited data

How the results depend on the processing

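No paired analysis was possible because each stage and mark has 1 library. The shares of 5hmC and 5mC peaks with both marks were 23.1% and 7.99% with at least 50% of the peak covered, 23.1% and 8.38% by centre, 37.3% and 16.9% with gaps of up to 1000 bp, 18.4% and 7.04% from a score of 100, and 13.25% and 13.1% with lists of equal length. The 5mC share was 12.7% with peaks within 1000 bp joined, and the 5hmC share was 26.6% without peaks of at least 3000 bp, a setting chosen after the data were seen. Width differences were 74 bp (50% covered), 74 bp (centre), 68 bp (gap) and 96 bp (joined) for 5hmC. For 5mC they were 1, 14, 38, 102 (score), 89.5 (equal length) and 138 bp (joined). Score differences for 5hmC were 17.8 (gap) and 39.4 (score). For 5mC they were 0.365 (50% covered), 4.36 (centre), 8.90 (gap), 15.2 (score) and 18.3 (joined). Neighbours within 2 kb were found for 15.2% of 5hmC and 44.75% of 5mC peaks, and within 10 kb for 46.8% and 82.3%. From a score of 100 the 5 kb shares were 18.5% and 52.5%, with joined peaks 23.8% and 57.0%, and for 5mC 51.4% with equal length and 67.3% without wide peaks. In each of these settings 5mC peaks were more clustered than 5hmC peaks. The X share of 5hmC was 0.587% with joined peaks, against 0.702% as deposited. Windows with both marks numbered 7135 from a score of 100, and 2331 at 1 Mb.

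The gap between both-mark and single-mark peaks in the later lists, in percentage points, kept its direction except for 5mC peaks in day-3 5mC, which reversed from 0.917 to -1.52 from a score of 100; the cause was not tested. Counted by overlap from 1 bp, it was 66.4 for 5hmC peaks in day-3 5mC, 27.7 in iPS 5hmC and 41.8 in iPS 5mC, and for 5mC peaks 28.0 in day-3 5hmC, 19.15 in iPS 5hmC and 19.1 in iPS 5mC. From a score of 100 in each list it was 27.5, 64.4, 27.55 and 35.5 for 5hmC peaks in day-3 5hmC, day-3 5mC, iPS 5hmC and iPS 5mC, and 16.5 and 20.7 for 5mC peaks in iPS 5hmC and iPS 5mC. Of the 92 values recomputed for the comparisons, 37 stayed within the counting interval or within 1.5 times the count, 54 moved in size and 1 reversed. Of 56 more, for clustering by class and the best-scoring decile, 12 stayed and 44 moved. Among these, the share of 5mC peaks with both marks in the best-scoring decile was 6.56% with at least 50% covered, below the 7.99% of the list. The order of the 5mC classes in clustering turned with the overlap rule. Unknown depth limits each list, since a region below the score threshold is counted as unmarked.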
